A study of Mus musculus with 38 samples.

Results

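The genes described here are the secreted WNT ligands, their Frizzled receptors, the R-spondins and the nearest members of the same signalling step. They were taken by name: every numbered Wnt, Fzd and Rspo gene, together with Lrp5, Lrp6, Porcn and Wls. This gave 37 of the 29267 genes in the tables, namely 19 WNT ligands, 10 Frizzled receptors, 4 R-spondins, the co-receptors Lrp5 and Lrp6, and Porcn and Wls, which prepare and carry the ligands. The rule used names only and no measured value, but it was chosen with earlier results of these data known.

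WNT proteins are secreted lipid-modified signals. Porcn, an acyltransferase of the endoplasmic reticulum, attaches the lipid, and Wls carries the loaded ligand to the cell surface. A Frizzled receptor and Lrp5 or Lrp6 bind the ligand together, the complex that destroys beta-catenin is held off, and beta-catenin then acts with TCF/LEF factors on target genes. R-spondins raise the response by removing the ubiquitin ligases Rnf43 and Znrf3, which take Frizzled receptors off the membrane. Some ligands, with Wnt5a and Wnt5b as the usual examples, are better known for signalling that does not use beta-catenin. In the mouse embryo Wnt3, Wnt3a and Wnt8a belong to the primitive streak, and naive embryonic stem cells are kept in a medium whose GSK3 inhibitor stabilises beta-catenin without any ligand.

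The study compared mouse pluripotent cells in the naive and the primed state and followed the way back from primed to naive (PNT), with 38 RNA-seq libraries in 18 groups. ESC (5 libraries) are naive embryonic stem cells kept in LIF with CHIR99021, the GSK3 inhibitor, and PD0325901, an inhibitor of MEK. EpiSC (4) are primed epiblast stem cells kept in Activin A and bFGF, and kEpiSC (2) are a stable EpiSC line carrying a Klf4 transgene driven by a CAG promoter, with an Oct4-GFP reporter. kEpiSC were moved to iCD1, a reprogramming medium, and sampled on days 1, 2 and 3 without JNKi (2 libraries a day) and with JNKi (2, 3 and 2 libraries). JNKi stands for SP600125, which blocks the kinases that phosphorylate c-Jun, and the dose used for these libraries is not given in the sources used here. kiPSC (2) are the naive-state iPSCs recovered from this process. A separate system used primed cells made from ESC, JunKO, in which c-Jun was deleted by CRISPR/Cas9, or WT: iEpiSC (EpiSC-like cells, 1 library a genotype), kiEpiSC with Klf4 (1 a genotype), and kiEpiSC on day 3 of iCD1 without or with JNKi (2 libraries each). EpiSC-like cells were made in medium with XAV939 and IWR-1, small molecules that block WNT signalling to beta-catenin. The labels do not say whether replicate libraries came from separate cultures, so the p-values speak only of how far these libraries spread, which may be technical.

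Totals ran from 2.165 to 15.945 M (mega) counts per library. Jun was at 5.01 to 14.62 TPM (a level scaled for transcript length and library total) in the 6 JunKO libraries, against 40.39 to 240.39 TPM in the 6 WT libraries. Klf4 was at 65.19 to 102.61 TPM in kEpiSC, against 0.52 to 1.94 TPM in EpiSC, and it was also at 36.26 TPM in JunKO iEpiSC and 36.61 TPM in WT iEpiSC, whose names carry no Klf4 transgene. ESC replicates 1 to 4 stood apart in gene length minus effective length, which follows the fragment length assumed in counting. It was 73.48 to 73.49 bases there and 133.04 to 192.08 bases in the other 34 libraries. Fragment length below means this assumed length, and what set the 4 libraries apart was not tested. The 9 naive markers summed to 6836.1 to 10311.1 TPM in ESC and 7170.9 to 8471.5 TPM in kiPSC, against 187.4 to 484.1 TPM in EpiSC, where Nr0b1 and Prdm14 were listed at 0. On day 3 of iCD1 from kEpiSC they summed to 63.3 to 91.5 TPM, below the sum in either kEpiSC library. The sum does not stand for each marker. Against kEpiSC, 4 of the 9 were higher on day 3 and 1 was lower at an edgeR adjusted p under 0.05. Their median log2 fold change was 2.26, and of all genes 25.2% were higher and 25.4% lower. Pou5f1 and Sox2 together summed to 76.8 to 77.4 TPM on day 3, against 2048.7 to 2093.5 TPM in kEpiSC. The libraries labelled as reprogramming cells of days 1 to 3 were therefore named by their day only.

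Of the 37 genes, 32 reached a mean of 1 TPM in at least 1 group. The 5 that did not were Wnt1, Wnt2, Wnt9b, Rspo2 and Rspo4, whose group means stayed under that level in all 18 groups. The number at or above 1 TPM was 20 in kiPSC, 20 in ESC, 22 in EpiSC, 23 in kEpiSC, 27 on day 1, 26 on day 2 and 29 on day 3 of iCD1. In bulk RNA, a lower level from fewer cells of a type and from less RNA per cell cannot be told apart.

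**Figure D1:**
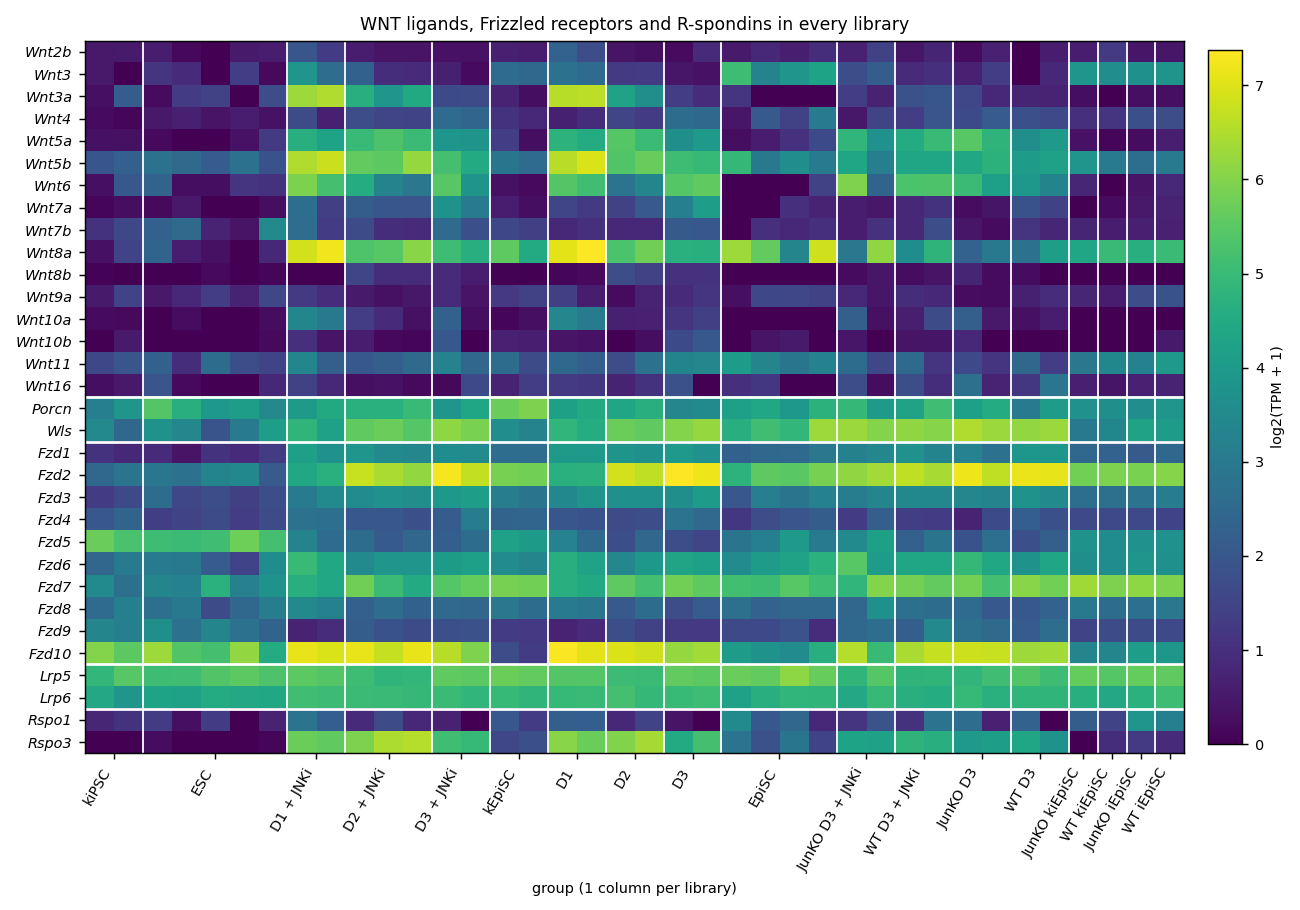
Levels of 32 genes (rows, by role) in the 38 libraries (columns, by group), as log2(TPM + 1) on the colour scale. Wnt3a is bright in the day 1 libraries with and without JNKi, Fzd10 is lowest in kEpiSC, and Rspo3 is dark in kiPSC and ESC.

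ESC differed from EpiSC in most of these genes, with more of them lower than higher. Of the 37, 25 passed the filter on low counts, and 19 of those were called at an adjusted p under 0.05 in edgeR's quasi-likelihood test with Benjamini-Hochberg adjustment over all 13923 genes tested, the test used for every adjusted p here unless another is named. Of all genes tested 50.9% were called. In ESC 15 of the 25 were lower (23.8% of all genes) and 4 were higher (27.1% of all genes), and their median log2 fold change was -1.28, against 0.02 over all genes tested. With ESC replicate 5 alone, the ESC library that did not stand apart in fragment length, 9 of the 25 were called: Wnt3, Wnt7b, Wnt8a, Wnt11, Fzd1, Fzd2, Fzd5, Fzd7 and Rspo3. The calls lost there were those of Wnt4, Wnt5b, Wls, Fzd3, Fzd6, Fzd9, Fzd10, Lrp5, Lrp6 and Rspo1, with no change of direction. A fit with 1 ESC library has less power for every gene. The share of all genes called in it was not counted, so the fall from 19 to 9 cannot be read against all genes. Replicate 5 had the highest sum of the 8 fibroblast markers among the ESC libraries, 471.4 TPM, against 16.5 to 133.7 TPM in EpiSC, and the part of these cells in the result was not tested.

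Wnt8a and Wnt3 had the lowest log2 fold changes of the 9 ligands tested, while Wnt3a, the other streak ligand named above, was at 0 to 2.38 TPM in ESC, against 0 to 1.16 TPM in EpiSC, and was not called (log2 fold change 2.07 ± 1.37). Wnt8a was at 4.2, 0.51, 0.25, 0 and 0.81 TPM in ESC replicates 1 to 5, against 78.33, 47.35, 9.24 and 114.84 TPM in EpiSC replicates 1 to 4. The groups did not overlap, although EpiSC replicate 3 was far below the other EpiSC libraries. The log2 fold change was -5.78 ± 0.84 (SE, edgeR adjusted p = 9.89e-05). Wnt3 was at 1.17, 0.85, 0, 1.53 and 0.15 TPM in ESC, against 33.22, 8.81, 13.43 and 18.52 TPM in EpiSC. All ESC libraries lay below all EpiSC libraries, and the log2 fold change was -4.82 ± 0.71 (edgeR adjusted p = 0.000108). The 6 mesendoderm markers, which include the streak marker Brachyury (T), summed to at most 29.9 TPM in ESC, against 44.9 to 1031.9 TPM in EpiSC, none of them at 0, and the part of streak-like cells in these results was not tested.

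Of the other ligands, Wnt11, which acts in cell movement at gastrulation, was lower in ESC by 2.13 ± 0.47 on the log2 scale. Wnt11 was at 3.89, 0.95, 5.13, 2.4 and 1.82 TPM in ESC, against 16, 9.32, 6.24 and 8.55 TPM in EpiSC, with no overlap. Wnt5b was at 2.62 to 5.8 TPM in ESC, against 6.93 to 29.01 TPM in EpiSC, and its log2 fold change was -1.68 ± 0.45. Wnt4 was called lower as well (log2 fold change -2.90 ± 0.63), but EpiSC replicate 1, at 0.37 TPM, lay inside the ESC range of 0.28 to 0.58 TPM. Wnt7b was the only ligand called higher in ESC, at 3.86, 4.9, 0.63, 0.31 and 10.54 TPM against 0, 1, 0.79 and 1.02 TPM in EpiSC. Those ranges overlapped, and the Wnt7b call (log2 fold change 2.48 ± 0.91, edgeR adjusted p = 0.0353) was lost without ESC replicate 2 or 5 and without any EpiSC library. Wls, the carrier of ligands, was at 12.76, 9.61, 2.81, 7.43 and 16.11 TPM in ESC, against 24.35, 33.46, 28.7 and 77.01 TPM in EpiSC (log2 fold change -2.08 ± 0.43). Porcn ranged from 10.09 to 41.25 TPM in ESC and from 14.4 to 25.48 TPM in EpiSC and was not called.

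Of the 10 receptors, 3 were called higher and 5 lower in ESC. Fzd5 was at 32.9, 31.56, 33.57, 52.26 and 35.64 TPM in ESC, against 6.19, 8.13, 14.78 and 7.25 TPM in EpiSC, and every ESC library lay above every EpiSC library (log2 fold change 1.82 ± 0.25, edgeR adjusted p = 6.47e-05). Fzd9 was also higher without overlap, at 4.1 to 11.66 TPM in ESC against 0.93 to 2.67 TPM in EpiSC. Fzd10 was called higher (log2 fold change 1.60 ± 0.36), at 78, 40.85, 35.76, 71.17 and 22.05 TPM in ESC against 15.55, 12.87, 10.82 and 24.07 TPM in EpiSC, where ESC replicate 5 and EpiSC replicate 4 overlapped. With ESC replicate 5 alone the log2 fold change was 0.45 ± 0.40 for Fzd10 (edgeR adjusted p = 0.409) and 1.03 ± 0.52 for Fzd9 (0.151), and neither was called. In the other direction, Fzd2 was at 6.47, 5.93, 9.09, 9.95 and 3.34 TPM in ESC, against 26.54, 46.1, 44.09 and 57.04 TPM in EpiSC. No ESC library reached the lowest EpiSC library for Fzd2, whose log2 fold change was -2.69 ± 0.28 (edgeR adjusted p = 7.05e-06). Fzd1 and Fzd7 were lower without overlap, by 2.41 ± 0.36 and 1.51 ± 0.32 on the log2 scale, and Fzd3 and Fzd6 were called lower with overlapping ranges. Fzd4 and Fzd8 were not called. The co-receptors moved little: the log2 fold change was -0.54 ± 0.15 for Lrp5, where the groups did not overlap, and -0.40 ± 0.14 for Lrp6, where they did and where the call was lost without ESC replicate 1 or 2 or without EpiSC replicate 2, 3 or 4.

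Rspo3, a secreted R-spondin that in the mouse embryo is made around the streak and tail bud, was almost unread in ESC, with 0.19, 0, 0, 0 and 0.1 TPM against 6.07, 2.59, 6.24 and 1.77 TPM in EpiSC. Its 2 counts over the ESC libraries made it 65.5-fold lower there, with a 95% interval of 17.3 to 554 that covers counting error only. Rspo1 was called lower too (log2 fold change -2.44 ± 0.81), at 0 to 1.49 TPM in ESC against 0.79 to 10.4 TPM in EpiSC, but this call was lost without ESC replicate 2 or EpiSC replicate 1.

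**Figure D2:**
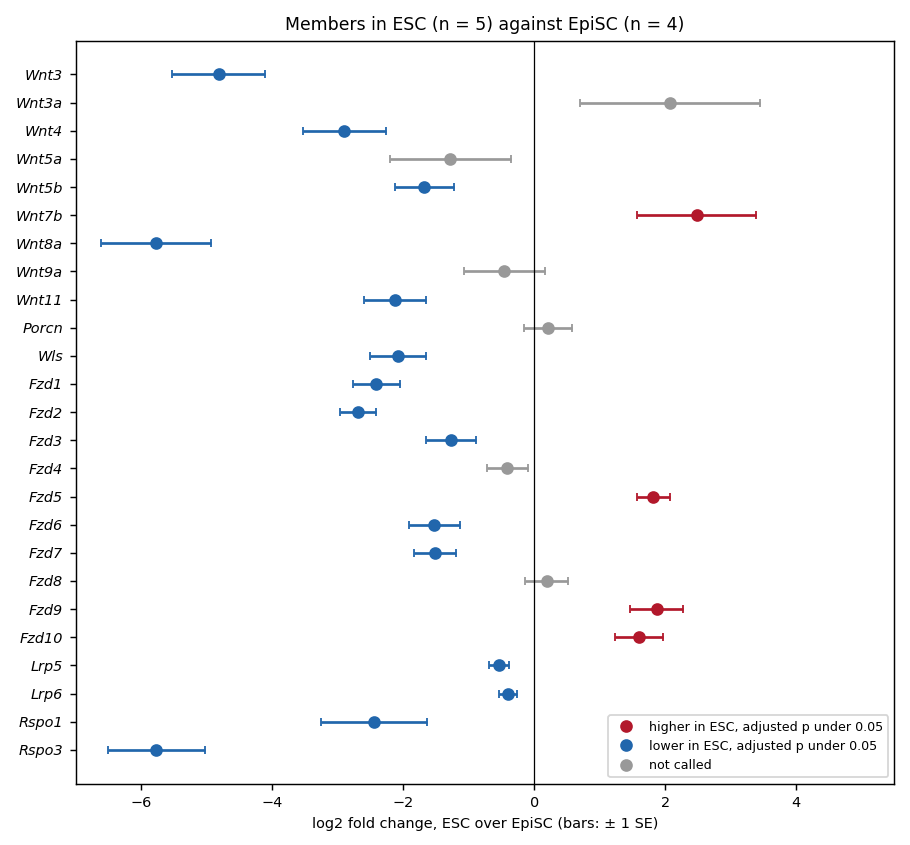
Log2 fold change of ESC (n = 5) over EpiSC (n = 4) for the 25 tested genes, with bars of 1 SE and colours for the call. Wnt3, Wnt8a, Fzd2 and Rspo3 lie to the left and Fzd5, Fzd9 and Fzd10 to the right. The Rspo3 point rests on 2 counts in ESC, so that its place depends on the fit.

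Genes of the same pathway outside the 37 were mixed, and their counts stand beside 27.1% of all genes called higher and 23.8% called lower. Of 11 tested secreted inhibitors 5 were higher and 3 lower in ESC. The higher ones included Notum, which removes the lipid of WNT proteins (mean 113 TPM in ESC, 1.77 TPM in EpiSC, log2 fold change 6.29 ± 0.72) and Sfrp1, a WNT-binding protein (76.3 and 21.1 TPM). The lower ones included Cer1 (0 TPM in ESC, 12.9 TPM in EpiSC, log2 fold change -9.18 ± 1.99). Of 15 other receptors and turnover genes, 1 was higher and 10 were lower. Ror2, a receptor for Wnt5a, was the higher one (26.5 TPM in ESC, 7.44 TPM in EpiSC). Among the lower ones were Gpc6 (1.5 TPM in ESC, 6.73 TPM in EpiSC) and Gpc3 (34.9 and 82.2 TPM). Among 20 intracellular components 3 were higher and 3 lower, and among 18 feedback and target genes 4 were higher and 8 lower. The target list shares 6 genes with the inhibitor and receptor lists, Notum among them.

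In primed medium the Klf4 line differed from EpiSC in 1 of the 25 tested genes, against 1.26% of all genes tested, and 7 of the 25 had an unadjusted p under 0.05. The share of all genes at that unadjusted cut was not counted, here or in later comparisons. Such counts therefore cannot be read as an excess, and the shares of all genes beside them are at the adjusted cut. The called gene was Fzd10, at 2.38 and 1.48 TPM in kEpiSC, against 15.55, 12.87, 10.82 and 24.07 TPM in EpiSC. The log2 fold change was -2.97 ± 0.53 (edgeR adjusted p = 0.0156), the groups did not overlap, and the call was lost, leaving 0, without kEpiSC replicate 1 or without replicate 2. DESeq2 called 3 genes: Fzd10, Wls and Porcn. Wls was at 11.16 and 8.77 TPM in kEpiSC, against 24.35 to 77.01 TPM in EpiSC (log2 fold change -1.96 ± 0.58, edgeR adjusted p = 0.129, DESeq2 adjusted p = 0.0158). Porcn was at 51.94 and 59.1 TPM in kEpiSC, against 14.4 to 25.48 TPM in EpiSC (log2 fold change 1.60 ± 0.44, edgeR adjusted p = 0.0996). Neither pair of ranges overlapped, and 10 of the 25 genes in all were without overlap. The share of all genes without overlap was not counted, here or in later comparisons. Counts of genes without overlap therefore cannot be read as an excess either.

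kiPSC differed from ESC in 0 of the 25 genes by edgeR and by DESeq2, against 0.144% of all genes called by edgeR (0.0934% higher and 0.0503% lower), and 2 had an unadjusted p under 0.05 in edgeR: Fzd4 (log2 fold change 0.91 ± 0.35) and Porcn (-1.02 ± 0.47). Fzd5 was at 51.65 and 37.66 TPM in kiPSC, against 31.56 to 52.26 TPM in ESC, and Fzd10 at 63.37 and 45.23 TPM against 22.05 to 78 TPM. Rspo3 was listed at 0 in both kiPSC libraries and in 3 of the 5 ESC libraries.

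The first day in iCD1 raised more of these genes than it lowered. Of the 37, 33 passed the filter in the time course, and 19 were called on day 1 against kEpiSC, 14 of them higher and 5 lower. Over all 14892 genes tested, 46.3% were called, 23.2% higher and 23.1% lower, and the median log2 fold change was 0.6 for the 33 genes and 0 for all. On day 2 the calls were 12 higher and 6 lower (18 of 33, against 49.4% of all genes, 24.1% higher and 25.3% lower), and on day 3 they were 13 higher and 5 lower (18 of 33, against 50.6% of all genes, 25.2% higher and 25.4% lower). These comparisons share the 2 kEpiSC libraries, so they are not independent of each other. On days 1, 2 and 3, 27, 25 and 27 of the 33 genes did not overlap kEpiSC. Groups of 2 libraries can fail to overlap by chance, and the share of all genes without overlap was not counted.

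On day 1, 9 of 17 tested ligands were called, all higher, as were 6 of 10 Frizzled receptors, 3 higher and 3 lower. Wnt3a lies on the minus strand of chromosome 11 (ENSMUSG00000009900, chr11:59248033-59290752, mm10). Its levels were 0.62 and 0.21 TPM in kEpiSC, 95.8 and 98.27 TPM on day 1, 17.96 and 11.44 TPM on day 2, and 1.55 and 0.93 TPM on day 3. The day 1 libraries were above all others of the course without JNKi, and by day 3 the level was near that of kEpiSC. The log2 fold change against kEpiSC was 7.71 ± 0.56 on day 1 (edgeR adjusted p = 4.03e-08) and 5.03 ± 0.58 on day 2, and day 3 was not called. Day 3 against day 1 gave -6.32 ± 0.55 (edgeR adjusted p = 6.95e-07). Wnt8a, already the leading ligand of kEpiSC, was at 46.24 and 21.71 TPM there, 133.73 and 162.72 TPM on day 1, 37.94 and 53.73 TPM on day 2, and 24.44 and 23.91 TPM on day 3. It was higher on day 1 without overlap (log2 fold change 2.01 ± 0.33, edgeR adjusted p = 0.000155), and on days 2 and 3 its ranges overlapped that of kEpiSC. Wnt10a, a close neighbour of Wnt6, was also highest on day 1, with 0.09 and 0.23 TPM in kEpiSC, 9.62 and 7.23 TPM on day 1, 0.58 and 0.61 TPM on day 2, and 1.16 and 1.65 TPM on day 3. It was called higher on day 1 (log2 fold change 6.10 ± 0.73) and on day 3 (2.88 ± 0.93), the day 3 call being lost without either kEpiSC library or day 3 replicate 1.

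Wnt5b and Wnt5a stayed up through day 3. Wnt5b (ENSMUSG00000030170, chr6:119432531-119544347, minus strand) was at 6.34 and 4.94 TPM in kEpiSC, 95.09 and 124.02 TPM on day 1, 40.79 and 49.42 TPM on day 2, and 33.06 and 29.84 TPM on day 3. No day overlapped kEpiSC, and the log2 fold changes were 4.15 ± 0.29, 2.93 ± 0.28 and 2.32 ± 0.29 on days 1, 2 and 3. Wnt5a was at 1.53 and 0.22 TPM in kEpiSC, 26.06 and 22.37 TPM on day 1, 42.39 and 31.84 TPM on day 2, and 11.68 and 14.66 TPM on day 3. It was highest on day 2, with log2 fold changes of 6.37 ± 0.21, 6.89 ± 0.21 and 5.45 ± 0.22 against kEpiSC (edgeR adjusted p at most 1.17e-10).

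Wnt6 (ENSMUSG00000033227, chr1:74771892-74785322, plus strand) had 2 high days. It was at 0.27 and 0.14 TPM in kEpiSC, 41.36 and 33.5 TPM on day 1, 6.02 and 9.19 TPM on day 2, and 42.22 and 46.82 TPM on day 3. The day 2 libraries lay below those of days 1 and 3 without overlap, and the log2 fold changes against kEpiSC were 7.90 ± 0.84, 5.81 ± 0.94 and 8.11 ± 0.84. Other ligands were late. Wnt7a was at 0.47 and 0.22 TPM in kEpiSC, 1.92 and 1.39 TPM on day 1, 1.69 and 3.14 TPM on day 2, and 8.1 and 16.06 TPM on day 3. It was called higher on each day, although the day 1 call (log2 fold change 2.12 ± 0.61) was lost without kEpiSC replicate 2 or day 1 replicate 1. Wnt4 was at 1.13 and 0.77 TPM in kEpiSC, and reached 5.11 and 4.67 TPM on day 3 (log2 fold change 2.13 ± 0.43). Wnt8b, at 0.03 and 0 TPM in kEpiSC, was at 2.38 and 1.73 TPM on day 2 and 1.08 and 1.13 TPM on day 3.

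Wnt3, the other streak ligand of the primed state, did not follow Wnt3a. It was at 5 and 4.58 TPM in kEpiSC, 5.79 and 4.97 TPM on day 1, 1.4 and 1.43 TPM on day 2, and 0.37 and 0.28 TPM on day 3. The log2 fold change on day 1 was 0.04 ± 0.54 (edgeR adjusted p = 0.964). Day 3 was lower without overlap (-4.04 ± 0.82, edgeR adjusted p = 0.000758), while the day 2 call (-1.84 ± 0.63) was lost without any of the 4 libraries compared. Wnt2b was higher on day 1 only among these days, at 3.97 and 2.34 TPM against 0.57 and 0.48 TPM in kEpiSC. Wnt2, with 0 counts in kEpiSC, was at least 10.4-fold higher on day 1, with 3 counts set over the kEpiSC group, although its mean stayed under 1 TPM.

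Upstream sequences are shown for Wnt3a, Wnt5b and Wnt6, the ligands other than Wnt8a with the highest mean TPM on day 1, and for Wnt5b at the starts with a motif, leaving out another start between them that holds none. The counts are per gene and do not tell which start was used. Each runs over the bases just before an annotated start, from RefSeq on GRCm38.p6, in the direction of the gene, and capitals mark a motif. Of the 37 genes, 24 had such a stretch here. The letters searched on both strands were CTTTGAT and CTTTGAA for TCF/LEF, TGACTCA for AP-1, the c-Jun family complex, TGACGTCA for CRE and GGGTGTGG for KLF. They were found in 7.48%, 4.46%, 1.55% and 3.2% of all 32851 promoters in that order. The TCF/LEF words differ in their last letter, and the other words are distinct.
Wnt3a chr11:59290753-59291001, minus strand: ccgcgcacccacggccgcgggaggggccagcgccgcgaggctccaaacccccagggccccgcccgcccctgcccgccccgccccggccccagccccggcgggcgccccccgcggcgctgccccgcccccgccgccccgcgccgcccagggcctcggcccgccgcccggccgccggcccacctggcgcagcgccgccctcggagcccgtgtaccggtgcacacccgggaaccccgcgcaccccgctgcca
Wnt5b, distal start, chr6:119544348-119544597, minus strand: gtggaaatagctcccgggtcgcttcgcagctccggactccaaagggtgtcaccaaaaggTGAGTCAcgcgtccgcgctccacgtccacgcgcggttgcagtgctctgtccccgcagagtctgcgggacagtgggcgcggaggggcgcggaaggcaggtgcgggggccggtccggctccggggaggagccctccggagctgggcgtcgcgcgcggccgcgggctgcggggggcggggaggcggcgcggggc
Wnt5b, proximal start, chr6:119449387-119449636, minus strand: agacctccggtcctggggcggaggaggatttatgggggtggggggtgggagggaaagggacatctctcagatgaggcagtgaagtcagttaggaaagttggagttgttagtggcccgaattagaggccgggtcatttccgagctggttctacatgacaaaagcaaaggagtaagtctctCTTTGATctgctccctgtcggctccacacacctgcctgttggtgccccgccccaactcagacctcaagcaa
Wnt6 chr1:74771642-74771891, plus strand: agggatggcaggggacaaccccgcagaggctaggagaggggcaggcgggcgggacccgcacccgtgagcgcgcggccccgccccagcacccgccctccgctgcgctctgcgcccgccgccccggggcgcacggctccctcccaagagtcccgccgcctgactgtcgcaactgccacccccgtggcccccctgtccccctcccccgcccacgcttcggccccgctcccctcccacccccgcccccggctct
The distal Wnt5b stretch holds the AP-1 letters on the opposite strand, 191 bases before the start, and it is the only AP-1 match among the 24 genes. The proximal one holds the TCF/LEF letters 71 bases before the start, and Wnt11 is the other gene with a TCF/LEF match. The Wnt3a stretch is 87.6% G and C and the Wnt6 stretch 79.6%, against a median of 52.4% over all promoters, and neither holds any of the 4 motifs. A match is only a run of letters, and its absence from this window says nothing of the factor.

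**Figure D3:**
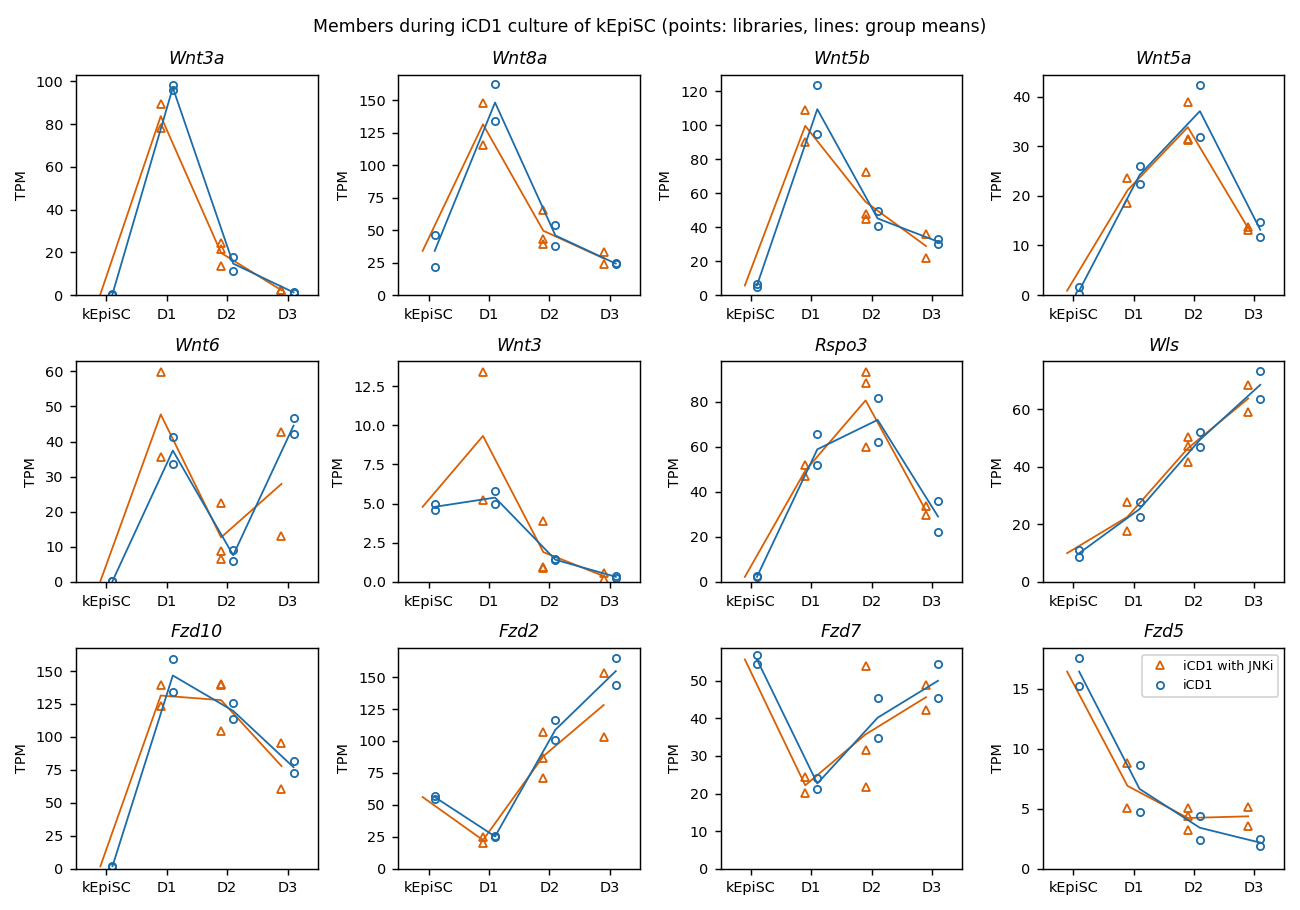
TPM of 12 genes in kEpiSC and on days 1, 2 and 3 of iCD1, with JNKi (triangles) and without (circles); points are libraries and lines join group means, starting from the same kEpiSC libraries. Wnt3a, Wnt8a and Wnt5b are highest on day 1, Wls and Fzd2 on day 3, and the points of both media lie close together in most panels.

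The receptors changed places at the same time. Fzd10 (ENSMUSG00000081683, chr5:128600844-128604093, plus strand) was at 2.38 and 1.48 TPM in kEpiSC, 159.38 and 133.89 TPM on day 1, 126.12 and 113.44 TPM on day 2, and 72.53 and 81.52 TPM on day 3. The kEpiSC libraries were far below all days, and the log2 fold changes were 6.12 ± 0.28, 5.87 ± 0.28 and 5.08 ± 0.27 (edgeR adjusted p at most 1.42e-09). Fzd2 was at 57.31 and 54.95 TPM in kEpiSC, 24.67 and 25.88 TPM on day 1, 116.66 and 100.94 TPM on day 2, and 165.3 and 144.03 TPM on day 3. It fell on day 1 by 1.28 ± 0.19 on the log2 scale, and then lay above kEpiSC on day 2 (0.87 ± 0.19) and day 3 (1.24 ± 0.19), each without overlap. Fzd7, a close relative of Fzd1 and Fzd2, was at 56.82 and 54.55 TPM in kEpiSC, 24.14 and 21.2 TPM on day 1, 45.51 and 34.88 TPM on day 2, and 54.5 and 45.52 TPM on day 3. Only its day 1 value was called (log2 fold change -1.42 ± 0.30). Fzd5, high in the naive cells, was at 17.59 and 15.27 TPM in kEpiSC, 8.61 and 4.7 TPM on day 1, 2.4 and 4.43 TPM on day 2, and 2.44 and 1.91 TPM on day 3. It was lower on each day, with log2 fold changes of -1.46 ± 0.22, -2.40 ± 0.24 and -3.05 ± 0.26.

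Fzd1 was at 5.28 and 5.23 TPM in kEpiSC and between 12.06 and 14.77 TPM on days 1 to 3, and was called higher on each day. Fzd3 was called higher on days 2 and 3 by at most 0.73 ± 0.26 on the log2 scale, and both calls were lost without kEpiSC replicate 2, the day 2 call also without either day 2 library and the day 3 call without day 3 replicate 2. Fzd6 was higher on day 1 (0.94 ± 0.24), Fzd8 lower on day 3 (-1.26 ± 0.31), and Fzd4 lower on day 2 (-0.89 ± 0.32). The Fzd6 call was lost without kEpiSC replicate 2 or day 1 replicate 1, the Fzd8 call without day 3 replicate 1, and the Fzd4 call without any of its 4 libraries. Fzd9 stayed between 0.62 and 2.4 TPM throughout and was not called. Lrp6 was between 27.11 and 36.09 TPM in these 8 libraries and was not called on any day. Lrp5 was lower on day 2, at 32.49 and 31.39 TPM against 52.02 and 47.23 TPM in kEpiSC (log2 fold change -0.72 ± 0.14). Its day 1 call (-0.40 ± 0.14) was lost without any of the 4 libraries.

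The handling of ligands and the R-spondins also moved. Wls was at 11.16 and 8.77 TPM in kEpiSC, 27.84 and 22.7 TPM on day 1, 51.92 and 46.73 TPM on day 2, and 63.52 and 73.32 TPM on day 3. Each day lay above the one before without overlap, and the log2 fold changes against kEpiSC were 1.22 ± 0.25, 2.23 ± 0.25 and 2.55 ± 0.25. Porcn went the other way, with 51.94 and 59.1 TPM in kEpiSC, 17.33 and 21.21 TPM on day 1, 19.12 and 24.25 TPM on day 2, and 9.71 and 10.61 TPM on day 3. Its log2 fold changes were -1.70 ± 0.25, -1.55 ± 0.25 and -2.70 ± 0.28. The kEpiSC level was itself high, with a mean of 55.52 TPM against 19.263 TPM in EpiSC. The primed cells made from ESC had 11.34 to 13.46 TPM of Porcn. In that system Porcn was not called on day 3 of iCD1, at a mean of 19.66 TPM in JunKO and 11.635 TPM in WT. Rspo3 (ENSMUSG00000019880, chr10:29452416-29535867, minus strand) was at 1.98 and 2.48 TPM in kEpiSC, 65.69 and 52.11 TPM on day 1, 62.21 and 81.75 TPM on day 2, and 22 and 36.1 TPM on day 3. No day overlapped kEpiSC, and the log2 fold changes were 4.59 ± 0.29, 4.92 ± 0.29 and 3.44 ± 0.29 (edgeR adjusted p at most 2.71e-07). Rspo1 was at 3.04 and 1.47 TPM in kEpiSC, 3.71 and 3.65 TPM on day 1, 0.81 and 1.83 TPM on day 2, and 0.32 and 0 TPM on day 3, where its few counts made it 13.5-fold lower than in kEpiSC (95% counting interval 3.61 to 114).

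Summed over the 19 ligands, the mean was 56.6 TPM in kEpiSC, 444.6 TPM on day 1, 165.2 TPM on day 2 and 152.2 TPM on day 3, with library ranges of 41.2 to 72.0, 423.9 to 465.4, 157.5 to 172.8 and 146.7 to 157.6 TPM. The make-up changed with the sum. In kEpiSC Wnt8a gave 58.4% of it. On day 1 Wnt8a gave 33.3%, Wnt5b 24.5% and Wnt3a 21.9%, and on day 3 the leading ligand was Wnt6 with 29.2%. The summed Frizzled level was 163.9 TPM in kEpiSC, with Fzd2 and Fzd7 at 34.3% and 34.0%, and 259.0 TPM on day 1, when Fzd10 alone gave 56.6%. By day 3 it was 338.5 TPM, of which Fzd2 gave 45.6%. Rspo3 gave 94.0%, 98.3% and 98.0% of the R-spondin sum on days 1, 2 and 3. Outside the course, the ligand sum was 15.1 TPM in kiPSC (9.1 to 21.0), a mean between those of kiPSC and EpiSC in ESC (13.1 to 27.6 TPM) and 113.8 TPM in EpiSC (47.8 to 164.8).

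**Figure D4:**
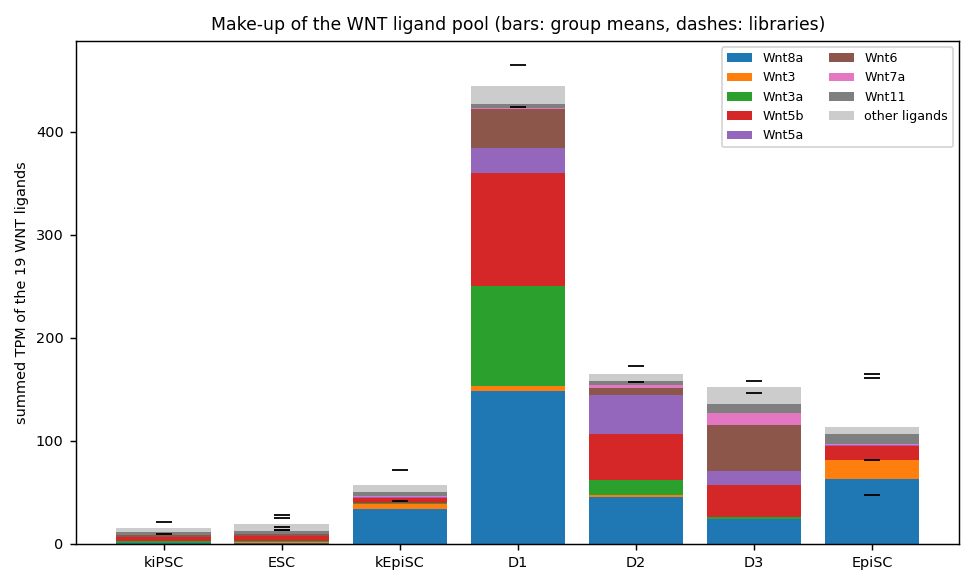
Summed TPM of the 19 WNT ligands in 7 groups, stacked by ligand; bars are group means and dashes are libraries. The bar of day 1 reaches 444.6 TPM with Wnt8a, Wnt5b and Wnt3a as its widest bands, while kiPSC stays at 15.1 TPM and the ESC libraries at 13.1 to 27.6 TPM.

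Day 3 was also set against day 1, a comparison without kEpiSC. Of the 33 genes, 22 were called, 8 higher and 14 lower, against 28.2% of all genes (13.6% higher and 14.6% lower). The fallers included Wnt3a, Wnt8a (log2 fold change -2.72 ± 0.36), Wnt5b (-1.83 ± 0.26), Wnt10a (-3.22 ± 0.62), Fzd5 and Rspo3 (-1.15 ± 0.24). Those that rose included Fzd2 (2.51 ± 0.20, edgeR adjusted p = 2.87e-07), Wnt7a (2.74 ± 0.50), Wnt4 (2.55 ± 0.47), Wls (1.33 ± 0.24) and Fzd7 (1.04 ± 0.31). The Fzd7 call was lost without either day 1 library or without day 3 replicate 1. The calls of Wnt7b and Wnt10b, higher at under 4 TPM, and of Wnt2 were each lost on leaving out any of the 4 libraries. The lower call of Porcn was lost without day 1 replicate 2 or either day 3 library.

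Pathway genes outside the 37 were also compared on day 1, and their counts stand beside 23.2% of all genes called higher and 23.1% called lower. Of 18 tested feedback and target genes, 15 were higher and 2 lower than in kEpiSC, with a median log2 fold change of 3.01, against 0 over all genes. The caudal factor Cdx2 averaged 290 TPM on day 1 and 0.18 TPM in kEpiSC (log2 fold change 10.43 ± 0.53), and Notum 100 TPM and 0.415 TPM (7.89 ± 0.45). Among 16 secreted inhibitors 9 were higher and 2 lower, with a median of 2.04. Frzb, a secreted WNT-binding protein, averaged 31.3 TPM on day 1 and 1.41 TPM in kEpiSC (4.26 ± 0.31), and Cer1, an inhibitor of Nodal, BMP and WNT signals, 0.135 TPM and 23.0 TPM. Of 15 other receptors 7 were higher and 4 lower (median 0.64), with Ror2 at a mean of 38.9 TPM on day 1 and 6.16 TPM in kEpiSC, and the glypican Gpc4 at 7.57 TPM and 42.9 TPM. Of 20 intracellular components 8 were higher and 6 lower (median 0.1), and Tcf7l1, a repressor of WNT targets in pluripotent cells, averaged 19.7 TPM on day 1 and 64.1 TPM in kEpiSC (log2 fold change -1.83 ± 0.21). On day 3 the feedback and target genes were 13 higher and 2 lower than in kEpiSC, and 2 higher and 10 lower than on day 1.

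Markers of other cell types moved with these values. The 6 mesendoderm markers summed to 81.1 to 102.4 TPM in kEpiSC, 2155.3 to 2305.7 TPM on day 1, 426.4 to 525.1 TPM on day 2 and 165.4 to 185.0 TPM on day 3, and none was at 0 in these groups. T alone averaged 2050 TPM on day 1 and 169 TPM on day 3. Against kEpiSC, 4 of the 6 were called higher and 2 lower on day 1 (median log2 fold change 3.22). The counts were 2 higher and 3 lower on day 2 (median -2.14), and 1 higher and 4 lower on day 3 (median -3.83). These counts stand beside the shares of all genes given above for each day. The 8 fibroblast markers summed to 17.4 to 22.3 TPM in kEpiSC, 44.7 to 48.6 TPM on day 1, and 61.1 to 73.6 TPM on day 3, when Lum was at 0. Of 7 tested, 3 were called higher and 1 lower on day 1, and 3 higher and 0 lower on day 3. The same shares of all genes apply to this and the following lists. The 7 primed markers summed to 811.7 to 868.4 TPM in kEpiSC, 412.7 to 419.5 TPM on day 1 and 234.2 to 236.0 TPM on day 3. Of the 7, 1 was called higher and 5 lower on day 1, and 2 higher and 5 lower on day 3. The 6 trophoblast markers summed to 21.7 to 25.6 TPM in kEpiSC and 304.6 to 345.4 TPM on day 1. On day 2 they summed to 119.6 to 138.3 TPM and on day 3 to 81.9 to 86.0 TPM. Cdx2, which is also in the WNT target list, averaged 290, 105 and 50.9 TPM on days 1, 2 and 3. Of the 6, 4 were called higher than in kEpiSC and 2 lower on day 1 (median log2 fold change 3.36). The counts were 5 and 1 on day 2, and 4 and 1 on day 3. The 5 blood and endothelial markers summed to 0.8 to 1.8 TPM in kEpiSC, 13.7 to 20.1 TPM on day 1 and 3.2 to 4.6 TPM on day 3. Of 3 tested, 1 was called higher and 0 lower on day 1, and 2 higher and 0 lower on day 3. No trophoblast, blood or endothelial marker was at 0 in these groups. The part of any of these cells in the ligand and receptor levels was not tested.

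In kiPSC most of these genes were lower than on day 3. Of 33, 20 were called, 3 higher and 17 lower, against 57.9% of all genes (29.3% higher and 28.6% lower), and the median log2 fold change was -1.68, against 0 over all genes. Rspo3 was at 0 and 0 TPM in kiPSC, against 22 and 36.1 TPM on day 3, which makes it at least 156-fold lower with 3 counts set over the kiPSC group. Fzd2 was at 4.62 and 6.15 TPM in kiPSC, against 165.3 and 144.03 TPM on day 3 (log2 fold change -4.76 ± 0.24, edgeR adjusted p = 3.04e-10). Wnt5a was at 0.27 and 0.27 TPM, against 11.68 and 14.66 TPM (-5.59 ± 0.26). These 3 genes did not overlap between the groups, nor did Wnt6, at 0.24 and 3.12 TPM in kiPSC against 42.22 and 46.82 TPM (-5.34 ± 0.72). Of the 33 genes in all, 26 were without overlap. Wls (-3.06 ± 0.27), Fzd1 (-3.68 ± 0.25) and Fzd3 (-3.17 ± 0.32) were lower as well. The 3 genes that were higher in kiPSC were Frizzled receptors. Fzd5 was at 51.65 and 37.66 TPM in kiPSC, against 2.44 and 1.91 TPM on day 3 (4.37 ± 0.26), Fzd9 at 9.17 and 8.05 TPM against 1.39 and 1.32 TPM (2.77 ± 0.37), and Fzd8 at 4.95 and 8.03 TPM against 2.36 and 3.42 TPM (1.29 ± 0.32). Fzd10 was not called, at 63.37 and 45.23 TPM in kiPSC against 72.53 and 81.52 TPM on day 3.

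Between the end and the start of the way back, kiPSC against kEpiSC, 16 of the 33 genes were called, 3 higher and 13 lower, against 57.5% of all genes (28.2% higher and 29.2% lower). The higher ones were again Frizzled receptors: Fzd10 (log2 fold change 4.71 ± 0.27, edgeR adjusted p = 1.38e-09), Fzd9 (2.53 ± 0.33) and Fzd5 (1.32 ± 0.21). The lower ones included Wnt8a, at 0.25 and 1.77 TPM in kiPSC against 46.24 and 21.71 TPM in kEpiSC (-5.38 ± 0.57), Wnt3 (-4.35 ± 0.82), Fzd7 (-2.87 ± 0.33) and Porcn (-2.46 ± 0.27). The kEpiSC level of Porcn lay above that of EpiSC, as given above. Rspo3 was at least 14.7-fold lower with 3 counts set over kiPSC. The ranges of all these genes did not overlap, and 21 of the 33 genes in all were without overlap. Wnt5b was called lower by 0.89 ± 0.36 on the log2 scale, a call that was lost without any of the 4 libraries.

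JNKi made no called difference to these genes on any day of iCD1. Of the 33 genes edgeR called 0 on day 1, 0 on day 2 and 0 on day 3, against 0%, 0.00672% and 0% of all genes, and DESeq2 and limma also called 0 on each day. At an unadjusted p under 0.05 edgeR had 3 genes on day 1, 0 on day 2 and 4 on day 3. On day 1 these were Fzd4, at 5.93 and 5.49 TPM with JNKi against 2.9 and 2.62 TPM without (log2 fold change 1.03 ± 0.32), Wnt7b (1.84 ± 0.58) and Wnt5a (-0.39 ± 0.14). On day 3 they were Porcn (0.67 ± 0.30), Fzd5 (0.63 ± 0.30), Fzd8 (0.72 ± 0.34) and Fzd9 (0.92 ± 0.42). Each was without overlap between the media, as were 9 of the 33 genes in all. The genes that moved most in iCD1 were close in both media. Wnt3a was at 78.2 and 89.22 TPM with JNKi on day 1, against 95.8 and 98.27 TPM without (-0.22 ± 0.36). Fzd10 was at 139.39 and 123.44 TPM with JNKi, against 159.38 and 133.89 TPM (-0.17 ± 0.21). Rspo3 on day 3 was at 33.62 and 29.6 TPM with JNKi, against 22 and 36.1 TPM (0.18 ± 0.25). Wnt6 spread most on day 3, at 42.73 and 13.11 TPM with JNKi against 42.22 and 46.82 TPM without (-0.53 ± 0.49). With 2 or 3 libraries a group, differences well beyond these errors could be missed. Fzd4 and Wnt7b on day 1 were not called despite their values above, and at most 1 of all 14892 genes was called on any day. On day 3, 0 of the 9 naive markers were called, at a median log2 fold change of 1.48. The lack of calls therefore does not show that JNKi left these genes unchanged.

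Cells made from ESC were compared in the same way on day 3, each genotype with its own primed cells. In JunKO kiEpiSC on day 3 of iCD1 against JunKO primed cells, 8 of 26 tested genes were called, 6 higher and 2 lower, against 24.8% of all 12613 genes tested (13.5% higher and 11.3% lower). In WT the same comparison called 10 of 26, 7 higher and 3 lower, against 28.9% of all genes (14.5% higher and 14.3% lower). Each genotype had 2 primed libraries, an iEpiSC and a kiEpiSC, fitted with a term for the line. Without the kiEpiSC library the count was 1 in JunKO and 3 in WT. Wls was at 89.21 and 75.91 TPM in JunKO day 3 cells, against 18.2 TPM in JunKO iEpiSC and 6.84 TPM in JunKO kiEpiSC (log2 fold change 3.29 ± 0.24). In WT it was at 71.77 and 76.12 TPM on day 3, against 15.86 TPM in iEpiSC and 9.54 TPM in kiEpiSC (3.01 ± 0.23). The call of Wls was kept in all 10 alternatives run in each genotype.

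Rspo3 was at 14.82 and 16.7 TPM in JunKO day 3 cells, against 1.37 TPM in iEpiSC and 0 TPM in kiEpiSC (5.16 ± 0.74), and at 19.82 and 12.74 TPM in WT day 3 cells, against 0.85 and 0.94 TPM (4.66 ± 0.68). Fzd10 was at 111.51 and 107.91 TPM in JunKO day 3 cells, against 16.32 and 9.16 TPM (3.43 ± 0.52), and at 77.93 and 80.27 TPM in WT, against 14.09 and 9.54 TPM (3.0 ± 0.51). Neither gene overlapped between day 3 and primed cells in either genotype. Of the 26 genes in all, 22 in JunKO and 20 in WT were without overlap. Wnt5a, with 0.18 and 0.28 TPM in JunKO primed cells, was at 43.41 and 26.7 TPM on day 3, a ratio of 182 on 2 primed counts (95% counting interval 50 to 1510), and in WT it was at 11.64 and 14.83 TPM, against 0.54 and 0.08 TPM. Wnt6 was called in JunKO, with a ratio of 64 (17.4 to 533), and not in WT, with a ratio of 29.7 (7.87 to 250) and an edgeR adjusted p of 0.0735. DESeq2 called it in WT as well (adjusted p = 0.00725), as did limma, edgeR over all 38 libraries (0.0382) and edgeR without the filter on low counts. Wnt3 was lower, at 0.59 and 1.54 TPM in JunKO day 3 cells against 12.02 and 13.78 TPM (-3.61 ± 0.59), and at 0 and 0.8 TPM in WT against 13.2 and 11.37 TPM (-4.95 ± 0.70). In JunKO every call but that of Wls (Rspo3, Fzd10, Fzd2, Wnt5a, Wnt6, Wnt3 and Lrp5) was lost without the kiEpiSC library, and those of Wnt6 and Lrp5 also without the iEpiSC library or day 3 replicate 1. In WT the calls of Fzd1, Fzd2, Fzd3, Fzd5, Fzd10, Wnt5a and Wnt11 were lost without the kiEpiSC library, and those of Wls, Rspo3 and Wnt3 were kept. Markers of other cell types moved here too. The fibroblast markers summed to 100.0 to 115.0 TPM in JunKO day 3 cells, against 12.4 to 15.2 TPM in JunKO primed cells, and to 75.5 to 99.2 TPM in WT day 3 cells, against 10.8 to 18.8 TPM in WT primed cells, with Dcn at 0 in the day 3 cells of both genotypes and Lum also in WT. The trophoblast markers summed to 121.0 to 174.5 TPM in JunKO day 3 cells, against 17.5 to 41.4 TPM in primed cells, where Cdx2 and Hand1 were at 0. In WT they summed to 79.3 to 96.3 TPM, against 29.9 to 44.2 TPM. Cdx2 alone averaged 129 TPM in JunKO day 3 cells and 70.0 TPM in WT day 3 cells. Of 4 trophoblast markers tested, 2 were called higher and 1 lower in JunKO, and 3 higher and 1 lower in WT. Of 4 fibroblast markers tested, 3 were called higher and 0 lower in each genotype. The mesendoderm markers summed to 123.2 to 593.8 TPM in JunKO day 3 cells, against 37.2 to 91.9 TPM. In WT they summed to 114.5 to 169.3 TPM, against 56.2 to 126.3 TPM. T alone was at 112.0 to 574.6 TPM in JunKO day 3 cells and 111.0 to 156.5 TPM in WT day 3 cells. Of the 6, 1 was called higher and 2 lower in JunKO (median log2 fold change -2.31). In WT 0 were called higher and 2 lower (median -4.75). The part of any of these cells in the results was not tested. The difference between the genotypes in this change was tested directly: 0 of 26 genes were called by edgeR and by DESeq2, against 0.0159% of all genes, and edgeR had 0 at an unadjusted p under 0.05.

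JunKO and WT cells were then set against each other. On day 3 of iCD1, 0 of the 26 genes were called by edgeR and by DESeq2, against 1.7% of all genes, and 2 had an unadjusted p under 0.05 in edgeR. Those were Wnt5a, at 43.41 and 26.7 TPM in JunKO against 11.64 and 14.83 TPM in WT (log2 fold change 0.88 ± 0.28, edgeR adjusted p = 0.18), and Fzd1, at 8.59 and 5.75 TPM against 13.54 and 13.55 TPM (-0.91 ± 0.27, edgeR adjusted p = 0.153). Neither gene overlapped between genotypes, but 11 of the 26 genes in all were without overlap. In primed cells 0 of 26 were called by both tools, against 0.357% of all genes, and 0 had an unadjusted p under 0.05. The naive markers summed to 540.1 to 1019.0 TPM in JunKO day 3 cells, against 69.6 to 196.7 TPM in WT, and their part in these values was not tested.

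With JNKi on day 3, 0 of 26 genes differed between JunKO and WT by edgeR and by DESeq2, against 0.92% of all genes, and 2 had an unadjusted p under 0.05. Fzd5 was at 10.58 and 17.26 TPM in JunKO, against 3.83 and 6.21 TPM in WT (log2 fold change 1.37 ± 0.39, edgeR adjusted p = 0.118), and Wnt3 at 2.43 and 3.51 TPM against 0.84 and 0.99 TPM (1.61 ± 0.64). The JunKO libraries with JNKi differed widely from each other. Wnt8a was at 6.66 TPM in replicate 1 and 70.78 TPM in replicate 2, Wnt6 at 60.8 and 4.23 TPM, and Fzd10 at 93.53 and 30.15 TPM. Without replicate 1, 5 genes were called: Wnt8a and Fzd5 higher (log2 fold changes 1.79 and 1.77), and Wnt5a, Wnt6 and Fzd10 lower (-1.04, -3.36 and -1.76), with the lone library assumed to vary like the other groups. Without replicate 2 the count was 0. The mesendoderm markers summed to 492.9 to 1081.8 TPM in JunKO with JNKi, against 352.0 to 417.4 TPM in WT with JNKi, none of them at 0, and their part in these values was not tested.

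Between JunKO cells with and without JNKi, edgeR called 0 of 26 genes, against 0.0476% of all genes, with 6 at an unadjusted p under 0.05 and 1 called by DESeq2, Fzd2. Fzd2 was at 69.84 and 80.35 TPM in JunKO with JNKi, against 144.22 and 101.28 TPM without (log2 fold change -0.78 ± 0.17, edgeR adjusted p = 0.139). Without JunKO JNKi replicate 1, 6 genes were called in that comparison, Wnt8a with a log2 fold change of 3.56 and Wnt6 with -2.52 among them. In WT, 0 of 26 genes were called by edgeR and by DESeq2, against 0.484% of all genes, with 6 at an unadjusted p under 0.05. Among these were Fzd2, at 101.91 and 84.38 TPM with JNKi against 142.65 and 136.06 TPM without (-0.59 ± 0.17), and Wnt6, at 38.28 and 38.73 TPM against 14.21 and 9.1 TPM (1.97 ± 0.80). The difference of the JNKi effect between JunKO and WT was called for 0 genes by edgeR and by DESeq2, against 0% of all genes, with 1 at an unadjusted p under 0.05 in edgeR, Wnt5a (-1.31 ± 0.40, edgeR adjusted p = 0.832), and for 3 genes, Wnt5a, Wnt6 and Fzd10, without JunKO JNKi replicate 1.

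**Figure D5:**
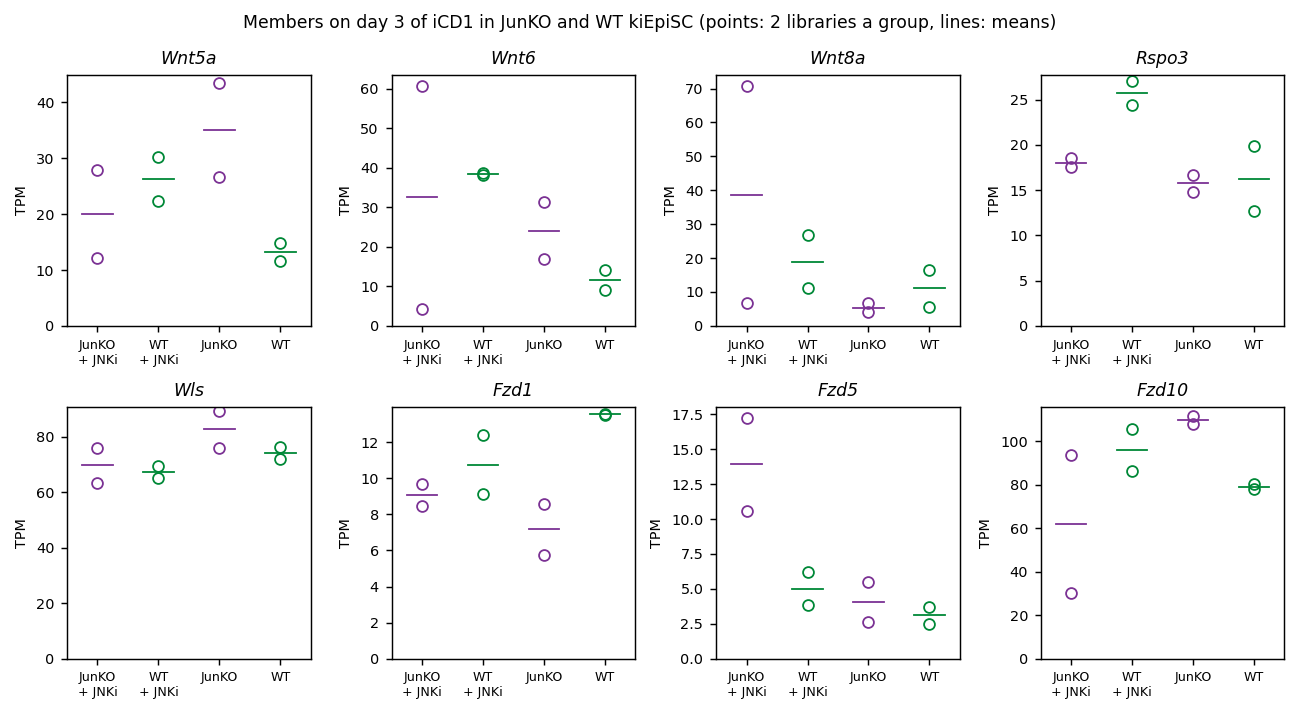
TPM of 8 genes on day 3 of iCD1 in JunKO and WT kiEpiSC with JNKi and without; points are libraries (2 a group) and lines are means. The JunKO libraries with JNKi lie far apart for Wnt6, Wnt8a and Fzd10, and Fzd1 is lower in JunKO than in WT without JNKi.

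Several of the ligand genes are neighbours. Wnt6 and Wnt10a lie 6.2 kb apart on chromosome 1, on the same strand, and both were high on day 1, with Wnt6 at 41.36 and 33.5 TPM and Wnt10a at 9.62 and 7.23 TPM. On day 3 Wnt6 was back at 42.22 and 46.82 TPM while Wnt10a was at 1.16 and 1.65 TPM. Wnt3a and Wnt9a lie 16.2 kb apart on chromosome 11 on opposite strands, and Wnt9a stayed between 0.16 and 1.69 TPM in kEpiSC and on days 1 to 3. It was called only on day 2 (log2 fold change -2.04 ± 0.72), a call lost without either kEpiSC library or day 2 replicate 1. Wnt9b and Wnt3, 24.3 kb apart on chromosome 11, and Wnt10b and Wnt1, 11.7 kb apart on chromosome 15, make up the other pairs. Wnt16 ranged from 0 to 6.44 TPM over all libraries and was called in no comparison. Of the 37 genes, 13 overlap another annotated gene and 6 share exon bases with one. Whether counting used strand is not stated, but the partners of Wnt5a, Wnt7b, Fzd5 and Fzd6 in the tables did not exceed 1.81 TPM in any library.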

How the data were processed

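RNA-seq libraries (38, NextSeq 500) were read from 1 table each. The authors aligned reads to mm10 with Bowtie2 and estimated expected counts per gene with RSEM, which are not normalized and need not be whole, and the deposited TPM values are those counts over effective length, scaled by the authors to a fixed sum per library. bcl2fastq is also named in the submitters' processing notes, with no version for any of these tools.

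Expected counts were rounded and tested with edgeR 4.0.16 (R 4.3.3), TMM scaling, filterByExpr with a minimum count of 10, quasi-likelihood F-tests and Benjamini-Hochberg adjustment over all genes of a fit at 0.05. Fits held ESC, EpiSC, kEpiSC and kiPSC (13 libraries, 13923 genes), kEpiSC, kiPSC and the iCD1 course (17, 14892) or the WT and JunKO cells (12, 12613). SE is the log2 fold change over the root of F. Groups of 2 libraries can fail to overlap by chance, and the share of all genes without overlap was not counted. Groups with 0 counts were set to 3 counts over the group, and those with up to 3 counts got a ratio with a 95% interval, which covers counting error only. Alternatives were DESeq2 1.42.0, limma 3.58.1 on log2(TPM + 1), other scaling, no filter, all libraries, a replicate block and leaving out each library. The tests were checked on simulated data with the same dispersion for every gene and changes planted only in well-counted genes. That check does not cover genes with few counts. Replicate libraries were no copies of each other. Totals were 2.165 to 15.945 M counts, the lowest in EpiSC, which limits the precision of genes near 1 TPM. The labels do not say what a replicate number shares, and correlations of same-numbered libraries were over 0.1 for some pairs of groups but not for every pair of any fit, so the numbers entered no model as reported.

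All genes of the rule are accounted for. Values per library are given for those at a group mean of at least 1 TPM and called in some comparison, and of the pathway lists up to 3 called genes a list with the largest change are named. The genes and lists were chosen with earlier results of these data known, and day 3 against day 1 was added after the levels had been seen. Promoter letters came from RefSeq (GRCm38.p6), and positions from the mm10 annotation. Sequences are shown for 3 of the genes.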

Additional observations from a re-analysis of the deposited data

Results flagged for a closer look

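Single genes were looked at within ESC and within EpiSC, the groups of 4 or 5 libraries, which gave 42 sets of values. In 7 of these sets (16.7%) the highest library lay far from the others. About 5% would be flagged among independent values with a normal spread. These sets share libraries, and TPM need not spread in that way, so the share cannot be read as an excess. ESC replicate 1 was such a library for Wnt6 (4.1 TPM, others 0.21 to 1.21), Wnt8a (4.2 TPM, others 0 to 0.81) and Fzd3 (5.15 TPM, others 1.62 to 2.45). Fzd5 was at 52.26 TPM in ESC replicate 4, against 31.56 to 35.64 TPM in the other ESC libraries, and Fzd7 at 25.2 TPM in ESC replicate 3, against 8.24 to 12.84 TPM. In EpiSC replicate 3 Fzd7 was at 43.18 TPM, against 32.49 to 34.06 TPM in the other EpiSC libraries, and Lrp5 at 68.09 TPM, against 47.29 to 50.69 TPM. In all 7 the library was high, not low.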

How the results depend on the processing

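Over 151 called results of single genes, 1483 of 1622 alternative values (91.4%) kept call and direction, 139 lost the call, 0 reversed, and 102 results were kept in every alternative run. Counts of called genes that moved were as follows. With ESC replicate 5 alone, ESC against EpiSC gave 9. For kEpiSC against EpiSC, DESeq2 gave 3, a fit of all 38 libraries 3, and leaving out a library 0 to 1. Without the filter on low counts, 1 gene was called for JNKi on day 1, 2 for JunKO against WT on day 3, 3 with JNKi, 15 for JunKO day 3 against primed, 3 for JNKi in WT, 4 for JNKi in JunKO and 4 for the difference of the JNKi effect. DESeq2 gave 1 for JNKi in JunKO. Leaving out a library gave 0 to 5 for JunKO against WT with JNKi, 3 to 10 for WT day 3 against primed, 1 to 9 for JunKO day 3 against primed, 0 to 6 for JNKi in JunKO and 0 to 3 for the difference of the JNKi effect. Porcn in kiPSC against ESC reversed to 0.13 with ESC replicate 5 alone, and Wnt3a in kiPSC against kEpiSC ranged from -0.92 to 2.89 on leaving out a kiPSC library. The cause was not tested. Correlations of the deviations of same-numbered libraries ran from -0.066 to 0.322. They were 0.145 to 0.249 between cells with and without JNKi of the same day, and 0.181 to 0.322 among JunKO without JNKi and both WT groups, but under 0.1 for JunKO with JNKi. A replicate block gave 1 call for JunKO against WT with JNKi (Fzd5, 1.36, edgeR adjusted p = 0.00671) and 3 for JNKi in JunKO (Wnt8a 2.44, Fzd5 1.42 and Fzd2 -0.76, adjusted p 0.0463, 0.00933 and 0.0343), where 0 were called without it, called Wnt6 in WT day 3 against primed (0.0296), and moved no other count by over 1.5 times.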
